A study of Mus musculus with 159 samples.

Results

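One ethanol effect was estimated for each probe across 3 drinking paradigms in mouse prefrontal cortex (PFC), the frontal part of the cortex that takes part in planning and in the control of drinking. The members were the PFC arrays of the Chronic, CI and DID studies, chosen by their labels, without control replicates 5 and 6 of the CI study. These were 57 of the 159 arrays of the series, 30 from ethanol mice and 27 from water mice, and no LPS array entered. All animals were female C57BL/6J mice, an inbred strain that drinks ethanol readily, and the labels give an age of 2.5 months while the study's methods give other ages. Chronic ethanol mice (10 arrays) had 20% ethanol and water continuously for 30 days, and 9 arrays came from their water controls, after the authors had removed 1 control. CI (chronic intermittent) ethanol mice (10 arrays) had the same choice every other day over 57 days, with 8 water arrays kept. DID (drinking in the dark) ethanol mice (10 arrays) had 20% ethanol in place of water for a limited time each day over 36 days, with 10 water arrays. Mice were killed 20 to 24 h after ethanol had last been offered, in the light period for Chronic and CI and in the dark period for DID, so paradigm, light phase and normalization set cannot be told apart. Each array held the RNA of 1 mouse, and the PFC was cut by hand as the foremost cortex after the olfactory bulbs had been removed.

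Ethanol acts on many membrane proteins, among them GABA and glutamate receptors and potassium channels, and repeated drinking engages dopamine release in the striatum, which lies just behind and beneath the frontal cortex. Spiny projection neurons of the striatum carry dopamine receptors and the phosphoprotein DARPP-32, whereas pyramidal neurons of the cortex carry the vesicular glutamate transporter Slc17a7. A block dissected by hand can therefore hold both kinds of neuron, besides glia, vessels and meninges. Excitatory cortical markers were measured on these arrays, with Slc17a7 at a mean log2 level of 12.52, the kinase subunit Camk2a at 12.80 and the deep layer transcription factor Tbr1 at 10.11. Markers of striatal neurons were measured as well, with Ppp1r1b at a mean log2 level of 11.37 and the D1 dopamine receptor Drd1 at 9.32. In bulk tissue of this kind, a change in the number of cells of a type cannot be told apart from a change in RNA per cell.

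Values were the deposited log2 levels, normalized separately in each study. The mean correlation of an array with the other arrays of its study and tissue was 0.972 to 0.993, and the lowest values, 0.972 and 0.976, belonged to Chronic ethanol replicates 6 and 2. The median standard deviation of a probe between mice of a group was 0.141 in Chronic ethanol and 0.121 in Chronic water mice. It was 0.10 in CI ethanol, 0.0971 in CI water, 0.0955 in DID ethanol and 0.0974 in DID water mice. The Chronic arrays were thus the most variable of the 3 studies.

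No transcript passed the adjustment across the paradigms. Of 10977 probes for 7868 genes, limma called 0 at an adjusted p under 0.05 (0% of probes), and the smallest adjusted p was 0.778. Without adjustment, 452 probes (4.12%) had p under 0.05, of which 291 (2.65% of all probes) were higher in ethanol mice and 161 (1.47%) lower. The median half-width of the 95% interval of the pooled difference was 0.0619 on the log2 scale, and for 10889 probes (99.2%) the whole interval lay inside a 1.2-fold change in either direction, which is 0.263 on the log2 scale. In 7387 probes (67.3%) it lay inside 0.1. In data simulated with this design, 50 random probes were changed at each of 0.1, 0.2, 0.5 and 1. Errors were independent, with 1 spread per probe for all 3 studies. Of the differences of 0.1, 38% passed the adjustment, with 90% of those of 0.2 and 100% of those of 0.5. The larger changes ease the adjustment for the smaller ones. These shares are for typical probes, and do not hold for probes as variable as Rgs9, with an SE of 0.19.

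**Figure D1:**
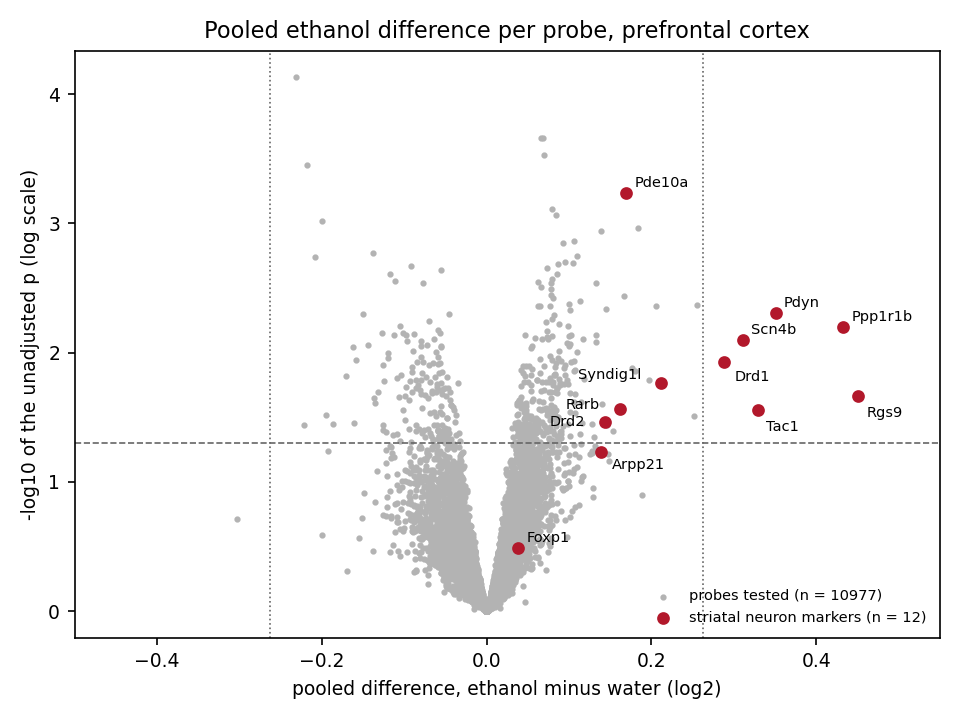
Pooled difference, ethanol minus water, on the log2 scale (horizontal axis) against -log10 of the unadjusted p (vertical axis) for 10977 probes. Dotted lines mark a 1.2-fold change, the dashed line marks p = 0.05, and the 12 striatal neuron markers are in red; 10 of them lie above the dashed line and all 12 to the right of 0.

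The 3 studies did not share a direction over most probes. A probe had the same sign in all 3 studies in 2534 cases (23.1%), and 0 probes had p under 0.05 with the same sign in all 3 studies fitted alone. Signs unrelated between the studies would give a share close to this, and few if any such probes. Over the 10977 probes, which are not independent of each other, the Chronic differences correlated with the CI differences at r = 0.008 and with the DID differences at r = 0.027, and the CI and DID differences correlated at r = -0.206. No array was shared between these comparisons.

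Striatal neuron markers held the largest upward pooled differences. Of 20 listed names 12 were measured, all 12 were higher in ethanol mice, and 10 had an unadjusted p under 0.05, against 2.65% of all probes in that direction. The markers vary together from array to array, so this is not a count of independent genes. Ppp1r1b, Drd1, Drd2, Pdyn and Pde10a are also in the network that the paper built from its CI data. The list was chosen with earlier results of these data known, so the count is not an independent test. The median difference of the 12 markers was 0.25, against 0.00 over all probes, and 0 passed the adjustment. The median was 0.26 in the Chronic study, 0.38 in CI and 0.08 in DID. In the studies fitted alone, 3 of the 12 had p under 0.05 in Chronic (4.25% of all probes in either direction), 5 in CI (6% of all probes) and 0 in DID (3.81% of all probes). A total of 6 probes in the whole fit combined an unadjusted p under 0.05 with a difference over 1.2-fold, and all 6 were striatal markers. They were Rgs9, Ppp1r1b, Pdyn, Tac1, Scn4b and Drd1. The most negative pooled difference of any probe was that of the calcium-binding protein Calb2, on the inhibitory, olfactory bulb and thalamic lists, at -0.30 (SE 0.23, p = 0.192).

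Rgs9, which speeds the shut-off of G protein signals behind dopamine and opioid receptors, had the largest pooled difference of any probe. In Chronic mice its log2 level had a lowest, median and highest value of 9.12, 10.70 and 11.49 with ethanol, against 9.44, 9.96 and 11.19 with water. In CI mice these values were 10.87, 11.87 and 12.89 with ethanol, against 9.03, 11.37 and 12.44 with water. In DID mice they were 8.86, 9.69 and 11.36 with ethanol, against 9.03, 9.96 and 10.66 with water. The groups overlapped in each study, and the ethanol median was the lower of the pair in DID. The pooled difference was 0.45 (SE 0.19, 95% interval 0.07 to 0.83, limma p = 0.0216, adjusted p = 1), a 1.37-fold ratio, and 22 of 30 ethanol mice lay above the water mean of their study.

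Ppp1r1b encodes DARPP-32, the phosphatase inhibitor through which dopamine acts in spiny neurons. Set against the water mean of its study, its log2 level had a lowest, median and highest value of -0.53, 0.35 and 1.61 in ethanol mice, against -1.42, -0.13 and 1.23 in water mice. The pooled difference was 0.43 (SE 0.15, p = 0.00635, adjusted p = 1), with 21 of 30 ethanol mice above the water mean. Its other probes differed by 0.21 (p = 0.00433) and 0.10 (p = 0.00204) in the same direction, from lower signals.

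Pdyn, the precursor of the dynorphin opioid peptides, had a lowest, median and highest value of -0.41, 0.34 and 1.28 relative to the water mean in ethanol mice, against -1.08, 0.06 and 1.13 in water mice. Its difference was 0.35 (SE 0.12, p = 0.00496), and a second probe gave 0.15 (p = 0.00455). In the studies taken alone, Pdyn differed by 0.54 in Chronic (limma unadjusted p = 0.00424), 0.46 in CI (p = 0.0936) and 0.08 in DID (p = 0.591). Tac1, the precursor of substance P, was the least even of the 6. It was 0.35 higher with ethanol in Chronic and 0.79 higher in CI, but differed by -0.10 in DID, for a pooled difference of 0.33 (SE 0.15, p = 0.0279), with 19 of 30 ethanol mice above the water mean.

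Scn4b, the sodium channel subunit that shapes repetitive firing of spiny neurons, was the marker that differed most alike in the 3 studies. Its differences were 0.39 in Chronic, 0.33 in CI and 0.22 in DID, and 0.31 pooled (SE 0.11, p = 0.00804), with 23 of 30 ethanol mice above the water mean. Drd1 differed by 0.34 in Chronic, 0.47 in CI and 0.08 in DID, and by 0.29 pooled (SE 0.11, p = 0.0118). Pde10a, the phosphodiesterase that degrades cyclic nucleotides in spiny neurons, had the smallest p among the markers, with a difference of 0.17 (SE 0.05, p = 0.000585, adjusted p at least 0.778) and 23 of 30 ethanol mice above the water mean. Syndig1l, a striatal membrane protein also called capucin, differed by 0.21 (p = 0.0172), the retinoic acid receptor Rarb by 0.16 (p = 0.0273) and the D2 dopamine receptor Drd2 by 0.14 (p = 0.0343). The last 2 measured markers were Arpp21, a cyclic AMP regulated phosphoprotein, at 0.14 (p = 0.0591), and the transcription factor Foxp1 at 0.04 (p = 0.324).

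**Figure D2:**
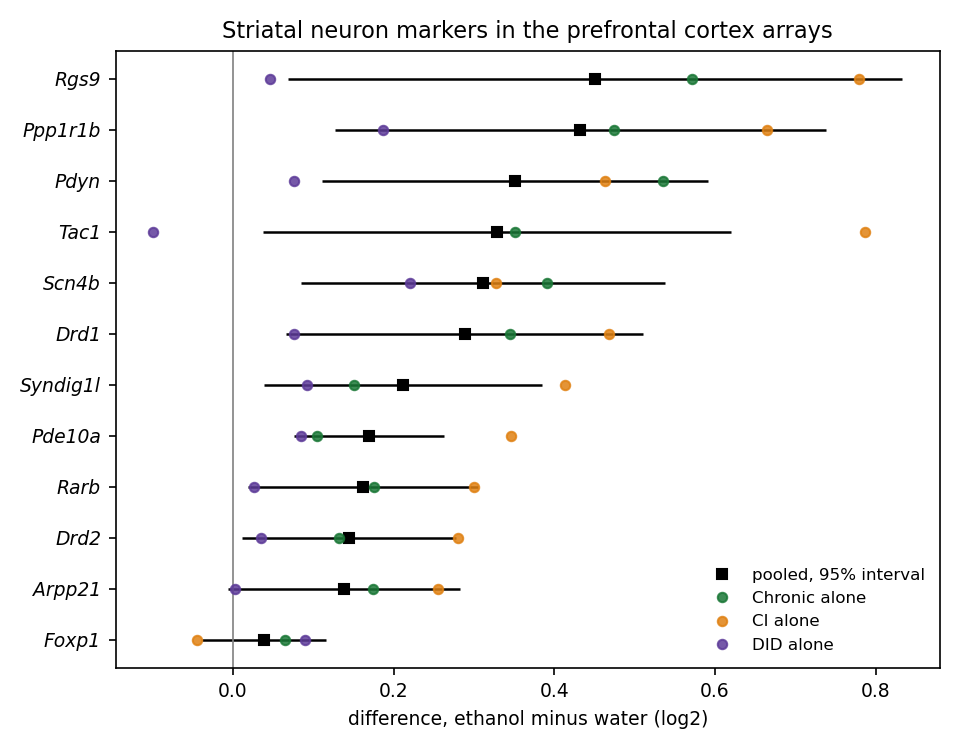
Difference, ethanol minus water, on the log2 scale for the 12 measured striatal neuron markers, with the pooled estimate and its 95% interval (black) and the estimate of each study (coloured points). Pooled estimates run from 0.04 for Foxp1 to 0.45 for Rgs9, and the DID points lie left of the pooled squares for all genes except Foxp1.

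The striatal marker level varied widely among water mice. As the mean of the 12 markers relative to the water mean of the study, its lowest, median and highest values were -0.292, 0.237 and 1.048 in the 30 ethanol arrays, against -0.873, -0.071 and 0.953 in the 27 water arrays. Both ends of the water range came from the CI study, where replicate 9 stood at -0.873 and replicate 10 at 0.953. Without CI water replicate 9, 7 of the 12 markers had p under 0.05 with a median difference of 0.211, and over all single arrays left out the count ran from 7 to 11 and the median from 0.211 to 0.294. Without the whole CI study the count was 3 with a median of 0.12, without Chronic it was 4 with 0.251, and without DID it was 11 with 0.319. The CI controls 5 and 6, left out here, had striatal levels of -0.995 and -0.827 relative to the other CI water arrays. With them included the count was 11 with a median of 0.316. The paper does not name them as removed from its own CI comparison. With the striatal level of each array as a term in the fit, a choice made after the data had been seen, 0 of the 12 had p under 0.05. Their median was 0.005. The term is the mean of these 12 markers, which holds their average near 0 in advance, so this fit cannot test them.

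**Figure D3:**
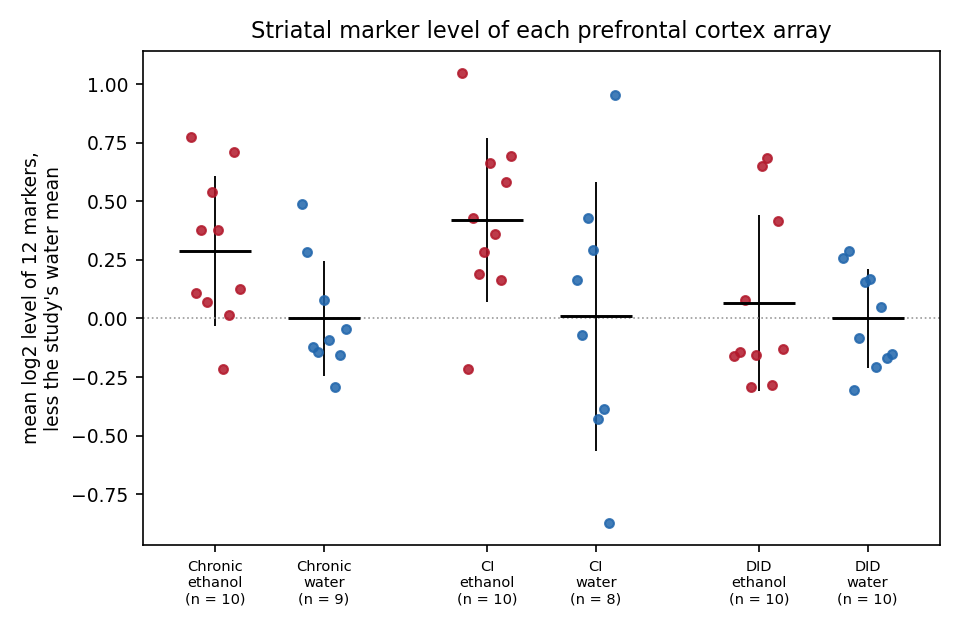
Mean log2 level of the 12 striatal neuron markers on each PFC array, less the water mean of its study (vertical axis), by study and arm; lines give the group mean and bars 1 SD. The ethanol and water arrays overlap in each study, and the CI water arrays run from -0.873 to 0.953.

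Transcripts outside the list followed the striatal level from array to array. The closest were Rem2, a small GTPase that regulates calcium channels (r = 0.951 over 57 arrays that share their study's normalization), Rxrg, a retinoid X receptor (r = 0.909), Pde1b, a calmodulin-dependent phosphodiesterase (r = 0.908), Gng7, a G protein subunit (r = 0.879), and Cartpt, a neuropeptide precursor (r = 0.867). Their pooled differences were 0.20 for Rem2 (p = 0.0164), 0.12 for Rxrg (p = 0.0350), 0.26 for Pde1b (p = 0.00425), 0.25 for Gng7 (p = 0.0309) and 0.19 for Cartpt (p = 0.126). On the opposite side the closest was Tmem145 (r = -0.636), with a difference of -0.04 (p = 0.368).

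Genes of dopamine and DARPP-32 signalling had mostly positive differences. Of 16 measured, 13 were positive and 6 had p under 0.05, against 2.65% of all probes higher, with a median of 0.06 and 0 past the adjustment. Those 6 were Ppp1r1b, Drd1, Drd2, Pde10a, Pde1b and Ppp1ca, a catalytic subunit of protein phosphatase 1 that differed by 0.08 (SE 0.03, p = 0.0149). The first 4 are also on the striatal list, and Pde1b and Ppp1ca are not. The other Ppp1ca probes gave 0.11 (limma p = 0.00993) and 0.02 (p = 0.528). Some other kinase and phosphatase genes of the list were picked after their values were seen. These were Prkaca at 0.02 (p = 0.639), Ppp3ca at -0.01 (p = 0.871) and Cdk5 at 0.00 (p = 0.943). Of 6 measured retinoic acid signalling genes, Rarb and Rxrg had p under 0.05, against 2.65% of all probes higher.

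Oligodendrocyte and myelin genes had mostly positive differences, with 0 past the adjustment. Of 13 measured, 12 had positive differences, with a median of 0.06, and 2 had p under 0.05 against 2.65% of all probes higher, the iron carrier transferrin (Trf) at 0.15 (SE 0.07, p = 0.0362) and the myelin galactolipid enzyme Ugt8a at 0.10 (SE 0.05, p = 0.0441). Without the Chronic ethanol arrays 2 and 6, 0 had p under 0.05 and the median was 0.042, and with the striatal level as a term the median was 0.014. With the CI controls 5 and 6 included, 5 of 13 were positive. Relative to the mean of the other CI water arrays, the myelin level of these 2 CI controls was 1.283 and 1.307, while the other CI water arrays ran from -0.172 to 0.127. Their excitatory cortical marker level was -1.194 and -1.301, while the others ran from -0.085 to 0.083.

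Meningeal and vascular fibroblast genes had mostly negative differences, with 0 past the adjustment. Of 12 measured, 11 had negative differences, with a median of -0.075, and 2 had p under 0.05, against 1.47% of all probes lower. Dcn, the matrix proteoglycan decorin, had a lowest, median and highest value of -0.40, -0.17 and 0.32 relative to the water mean in ethanol mice, against -0.51, 0.02 and 0.47 in water mice. Its difference was -0.15 (SE 0.05, p = 0.00505), with 25 of 28 ethanol mice below the water mean, although a second, dimmer probe gave -0.05 (p = 0.148). Bgn, the related proteoglycan biglycan, differed by -0.13 (SE 0.05, p = 0.00701), with 24 of 28 ethanol mice below. Both had the same sign in all 3 studies. Without the DID study 0 of the 12 had p under 0.05 and the median was -0.051. The median was -0.043 without Chronic ethanol replicates 2 and 6, and -0.144 with the CI controls 5 and 6. The endothelial glucose transporter Slc2a1 differed by 0.10 (SE 0.04, p = 0.0207), the only endothelial gene of 11 with p under 0.05, against 2.65% of all probes higher.

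Olfactory bulb neuron genes, markers of the tissue removed before the PFC was cut, were negative in 4 of 5 measured cases, with a pooled median of -0.152 and 0 with p under 0.05. Their median was -0.002 in Chronic, 0.026 in CI and -0.375 in DID, where all 5 were negative and 3 had p under 0.05 in the study fitted alone, against 3.81% of all probes. Without the DID study the pooled median was 0.011. Calb2 differed by -0.03 in Chronic, 0.08 in CI and -0.92 in DID. The mean olfactory bulb level of DID ethanol replicate 10 was 1.739 above the DID water mean, while the other 9 DID ethanol arrays ran from -0.792 to 0.095. The part of this in the DID differences of other genes was not tested.

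Immune, microglial and astrocyte genes had pooled differences close to 0. Of 29 listed interferon and MHC class I names 15 were measured. Among the 15, 11 had negative differences, the median was -0.02 and 0 had p under 0.05. The same count of 0 held for 11 measured of 30 listed genes of complement and innate immunity (median -0.01). It also held for 13 of 17 microglial genes (median -0.01) and 12 of 15 astrocyte genes (median 0.01). The studies differed in sign, with microglial medians of -0.051 in Chronic, -0.012 in CI and 0.039 in DID. Astrocyte medians were 0.051, 0.02 and -0.03 in that order. Over all probes 4.12% had p under 0.05, and 0 is near that share in lists this short. The most negative of the interferon genes was Ifitm3 at -0.11 (p = 0.146), and B2m, the light chain of MHC class I, stood at -0.07 (p = 0.165).

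Receptors and channels on which ethanol acts also stood near 0. Measured were 5 of 15 listed GABA-A receptor subunits (median 0.02), 10 of 22 glutamate receptor subunits (median 0.00) and 9 of 16 potassium channels (median 0.00). No gene of these had p under 0.05, against 4.12% of all probes, and 0 is near that share in lists this short. Of 19 synaptic vesicle and presynaptic genes 1 had p under 0.05, against 1.47% of all probes lower. It was the vesicle GTPase Rab3a at -0.06 (SE 0.03, p = 0.0443), with 24 of 30 ethanol mice below the water mean. Of 11 inhibitory neuron genes 9 had negative differences, with a median of -0.054, and 1 had p under 0.05, against 2.65% of all probes higher. This was the vesicular GABA transporter Slc32a1, which differed by 0.15 (SE 0.07, p = 0.0400), with differences of 0.28 in Chronic, 0.28 in CI and -0.08 in DID. The GABA synthesis enzyme Gad1 stood at -0.01 (p = 0.929).

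Of 13 measured neuropeptide and receptor genes 0 passed the adjustment. At an unadjusted p under 0.05, 2 of 13 were higher, Pdyn and Tac1, against 2.65% of all probes, and 2 were lower, against 1.47%. Grp, gastrin-releasing peptide, had a lowest, median and highest value of -0.70, -0.13 and 0.30 relative to the water mean in ethanol mice, against -0.44, -0.03 and 0.44 in water mice. Its difference was -0.16 (SE 0.06, p = 0.00909), made up of -0.24 in Chronic, -0.29 in CI and 0.02 in DID. Cort, the somatostatin-like peptide cortistatin, differed by -0.14 (SE 0.06, p = 0.0222), with 24 of 29 ethanol mice below the water mean, and a second probe gave -0.12 (p = 0.0529). Somatostatin itself (Sst) stood at 0.02 (p = 0.699).

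Among 19 clock genes Dbp, a transcription factor with a strong daily rhythm, was the only one with p under 0.05, against 2.65% of all probes higher. It differed by -0.01 in Chronic, 0.21 in CI and 0.20 in DID, and by 0.13 pooled (SE 0.04, p = 0.00291), with 22 of 30 ethanol mice above the water mean. In liver, Dbp was 0.26 higher with ethanol, and passed the adjustment there (limma adjusted p = 0.00342). Other list members with p under 0.05 were the cholesterol synthesis genes Nsdhl at 0.06 (p = 0.0431) and Dhcr7 at 0.04 (p = 0.0473), 2 of 16 measured against 2.65% of all probes higher, with a list median of 0.00. The glutathione transferase Gstm1 was 1 of 19 antioxidant and ethanol metabolism genes, against the same 2.65%, at 0.10 (p = 0.0174), with a list median of 0.003. Ribosomal protein genes were lower in 24 of 27 cases with a median of -0.03, and 0 had p under 0.05, against 4.12% of all probes. Their median was -0.16 in Chronic, 0.044 in CI and -0.008 in DID. Without Chronic ethanol replicates 2 and 6 the pooled median was 0.008.

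**Figure D4:**
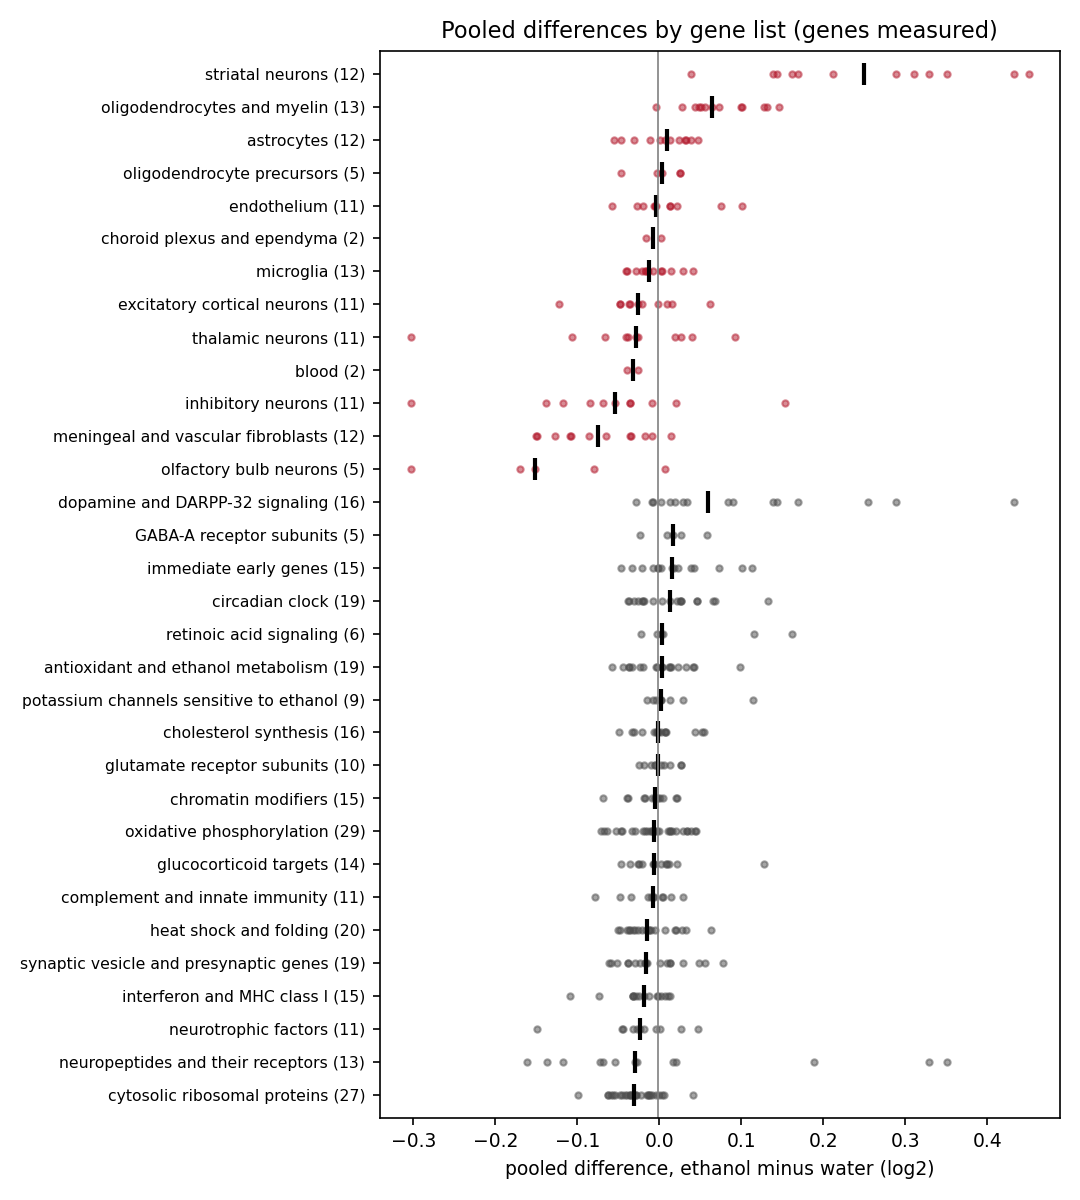
Pooled difference, ethanol minus water, on the log2 scale for each measured gene (points) of 32 lists, with list medians (black ticks) and the number measured in brackets; marker lists are in red and pathway lists in grey. The striatal list has a median of 0.25, oligodendrocytes and myelin 0.06 and meningeal and vascular fibroblasts -0.075, and the vertical line marks the median of all genes.

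The probes with the smallest pooled p held small differences shared by many mice, differences that were largest in Chronic, and differences that were largest in CI. Vapb, a membrane protein that ties the endoplasmic reticulum to other organelles, had the smallest p. In Chronic mice its log2 level had a lowest, median and highest value of 9.71, 9.99 and 10.37 with ethanol, against 10.06, 10.54 and 10.82 with water. It differed by -0.50 in Chronic, -0.18 in CI and -0.01 in DID, and by -0.23 pooled (SE 0.05, p = 7.41e-05, adjusted p = 0.778). A second Vapb probe gave -0.07 (p = 0.0419), and without the Chronic study the first gave -0.094 (p = 0.0723). In CI alone Vapb had an unadjusted limma p of 0.0273. The predicted gene Gm7609 (-0.22), the presynaptic adhesion gene Nrxn2 (-0.20) and Islr2, a membrane protein of growing axons (-0.21), also differed most in Chronic, with Chronic differences of -0.45, -0.45 and -0.58 in that order. Without the Chronic study Gm7609 stood at -0.097, Nrxn2 at -0.074 and Islr2 at -0.024. In CI alone Nrxn2 differed by -0.18 (limma unadjusted p = 0.0129). Pigt, a subunit of the enzyme that attaches GPI anchors, differed by -0.14 pooled and by -0.29 in Chronic.

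Slc35a1, the Golgi transporter of CMP-sialic acid, had small differences of the same sign in the 3 studies. Relative to the water mean its lowest, median and highest values were -0.05, 0.05 and 0.19 in ethanol mice, against -0.08, 0.01 and 0.09 in water mice. It differed by 0.07 pooled (SE 0.02, p = 0.000219, adjusted p = 0.778), by 0.07 in Chronic, 0.08 in CI and 0.05 in DID, and 27 of 30 ethanol mice lay above the water mean. A brighter probe of Slc35a1 gave -0.04 (p = 0.176), so its probes disagreed in sign. Dhrs7, a short-chain dehydrogenase/reductase, differed by 0.08 (SE 0.02, p = 0.000864), with 0.10 in Chronic, 0.08 in CI and 0.08 in DID, 26 of 30 ethanol mice above, a second probe at 0.08 (p = 0.00380) and another at 0.02 (p = 0.312). Inf2, an actin filament regulator, differed by 0.14 (SE 0.04, p = 0.00114) and Prkcz, an atypical protein kinase C, by 0.11 (SE 0.03, p = 0.00137), though the 2 other Prkcz probes stood at 0.03 and -0.01.

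Further probes with like differences in the 3 studies were Epn2, an endocytic adaptor (0.10), the lysosomal transporter Slc15a4 (0.08), Mcfd2, a cargo receptor subunit of the secretory pathway (0.09), the vesicle priming gene Unc13c (0.08) and the melanin-concentrating hormone receptor Mchr1 (0.06). Together with Slc35a1, Dhrs7, Inf2, Prkcz and Scn4b they are the 10 probes whose smallest difference, in units of its error, was largest, and this choice fixes their shared sign. The 4 other Epn2 probes differed by -0.015 to 0.042, and a second Slc15a4 probe by 0.02 (p = 0.304). The rest of the 20 smallest p-values belonged to Mbtps1, the site-1 protease that activates sterol regulators (0.07, 26 of 30 ethanol mice above), Krcc1 (0.07), Stx6, a SNARE of the trans-Golgi (0.08), Kcnab1, a potassium channel subunit (0.18), Fkbp1a (0.09), the sulfiredoxin Srxn1 (0.11), Rnd2 (0.10), the kinase Cdk10 (0.09) and Kctd4 (-0.09). All of these had adjusted p-values of at least 0.778. In CI, Kcnab1 differed by 0.34, Pde10a by 0.35 and Krcc1 by 0.14, more than in the other studies. Other probes of the same genes gave 0.17 and 0.03 for Kcnab1, 0.00 for Stx6, 0.05 and 0.00 for Cdk10, 0.055 and 0.021 for Mbtps1, and 0.04 and 0.03 for Srxn1, and of these only the 0.17 had p under 0.05 (p = 0.00365).

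The ethanol difference depended on the paradigm for 2 probes. Of 10977 tested, the moderated F test called 2 (0.0182%) at an adjusted p under 0.05, Raly and Emd, and 550 (5.01%) had an unadjusted p under 0.05. Raly encodes an RNA-binding protein of nuclear ribonucleoproteins. In Chronic mice its log2 level had a lowest, median and highest value of 9.71, 9.94 and 10.28 with ethanol, against 9.89, 10.62 and 10.93 with water. The Chronic water arrays fell into 2 sets, with replicates 1, 2 and 3 at 10.25, 10.02 and 9.89, inside the ethanol range, and the other 6 between 10.57 and 10.93, above it. In CI the ethanol arrays ran from 9.48 to 9.72 and the water arrays from 9.59 to 9.70, and in DID the ethanol arrays ran from 9.41 to 9.72 and the water arrays from 9.26 to 9.64. Raly differed by -0.56 in Chronic, -0.04 in CI and 0.12 in DID (interaction adjusted p = 0.00455). A dimmer Raly probe differed by -0.11, 0.03 and 0.00 in that order (interaction p = 0.00919, adjusted p = 0.829).

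Emd encodes emerin, a protein of the inner nuclear membrane. In Chronic mice its log2 level ran from 8.68 to 8.93 with ethanol, against 8.95 to 9.04 with water, without overlap. The water range rests on 8 arrays, since 1 of the 9 values was blank. The authors blanked outlying values, so the missing value may have lain within the ethanol range. The share of all probes without overlap was not counted, and Emd was chosen by its small interaction p. In CI the ethanol arrays ran from 8.39 to 8.75 and the water arrays from 8.33 to 8.56, and in DID the ethanol arrays ran from 8.38 to 8.75 and the water arrays from 8.37 to 8.60. Emd differed by -0.20 in Chronic, 0.11 in CI and 0.07 in DID (interaction adjusted p = 0.0156), and by 0.00 pooled. A second Emd probe differed by -0.12, 0.08 and 0.05 in that order (interaction p = 0.0232, adjusted p = 0.969). Raly passed in all 6 alternative fits that held its probe, whereas Emd passed in 1 of them and had adjusted p-values of 0.0703 to 0.243 in the others. On leaving out 1 array, both passed in all 57 fits, with a largest adjusted p of 0.0173 for Raly and 0.0478 for Emd. Next in order came Hebp1, a heme-binding protein, with differences of -0.36, 0.01 and 0.12 in Chronic, CI and DID, Islr2, and the ring finger gene Rnf141, with -0.06, 0.02 and 0.07.

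Several genes with large Chronic differences varied together among Chronic mice of the same arm. Over 19 arrays, deviations from the group mean correlated at r = 0.77 between Raly and Islr2, 0.77 between Raly and Nrxn2 and 0.76 between Raly and Vapb, while Raly and Gm7609 gave 0.12. Over the CI arrays the same pairs gave 0.43, -0.13, 0.35 and -0.13, and over the DID arrays 0.29, 0.10, 0.68 and -0.88. For Raly, Nrxn2 and Islr2, 3 of the 9 Chronic water arrays lay within the ethanol range. These were the same 3 arrays for each gene, so this split is part of the Chronic correlations among these genes. Nothing in the labels names a batch for these arrays, and a batch was not tested.

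**Figure D5:**
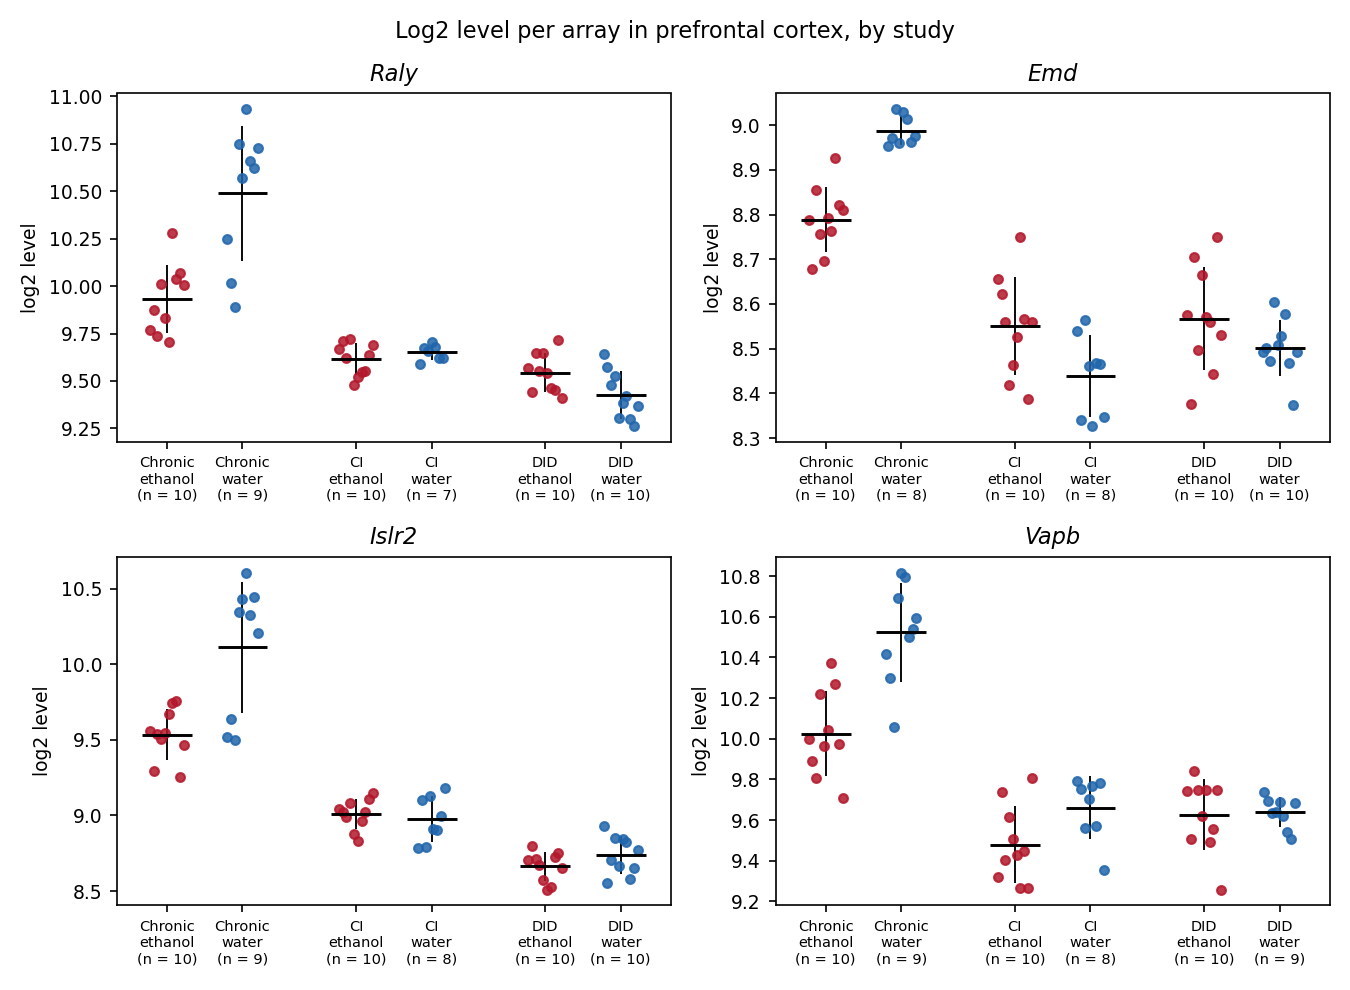
Log2 level of Raly, Emd, Islr2 and Vapb on each PFC array by study and arm, with group means (lines) and 1 SD (bars). In Chronic mice the Emd values kept do not overlap between the arms. Of the 9 water values 1 is blank and may have lain within the ethanol range. For Raly and Islr2, 3 of the 9 water arrays lie within the ethanol range while 6 lie above it.

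PFC gave fewer calls than liver of the same paradigms under the same model. In PFC 0 of 10977 probes passed the adjustment, against 133 of 8518 (1.56%) over the Chronic, CI and DID liver arrays. The difference between the tissues, PFC less liver, was tested over 7314 probes and passed for 21 (0.287%). All 21 were also called in liver, where 91 of the 7314 were called, so for most liver calls no difference between the tissues was shown. Of the 21, 0 had an unadjusted p under 0.05 in PFC, against 4.12% of all PFC probes, and 0 is near that share for so few probes. The 21 were picked by their difference from liver, so this count is not independent of that test.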

How the data were processed

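RNA of PFC and liver was measured on Illumina MouseRef-8 bead arrays. The values used were log2 intensities deposited by the authors, who kept probes detected (p up to 0.05) on over 80% of arrays, applied variance stabilization and quantile normalization per study in lumi (version not given in the sources used here), and blanked outlying values by Grubbs' test. Of the probes tested, 2915 have at least 1 blank. The 8 bead signal tables were not used, since their columns could not be tied to mice. Of 13983 probes, 13181 have 1 gene symbol and 802 have none.

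In R 4.3.3 with limma 3.58.1, the model had study and arm as terms, over probes with values in all 3 studies. Interactions were tested by a moderated F test. The PFC less liver contrast had 1 variance weight per tissue. P-values were adjusted by Benjamini and Hochberg over all probes of a test, with a threshold of 0.05. The fit was tested on simulated data. Alternatives left out arrays, studies or probes, or changed weights, centring or terms.

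The genes given by name were the 20 probes with the smallest pooled p, the 10 with the largest smallest t over the 3 studies in 1 direction, the 5 with the smallest interaction p, and list members with p under 0.05, each list gene by its brightest probe. The most abundant members of each list, also covered by the rule, are given where described. Members of the 32 lists, and genes that follow the striatal level, named outside this rule were chosen after their values were seen. The members and lists were chosen with earlier results of these data known.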

Additional observations from a re-analysis of the deposited data

Results flagged for a closer look

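A total of 528 groups of arrays were searched for a single array far from the rest, over the named genes and list levels, and 12 were found. Chance gives about 1 in 20 for independent groups of untouched values. Here outlying probe values had been blanked and list levels vary together, so the 12 cannot be set against that rate. Among genes these were Fkbp1a in CI ethanol replicate 1 (12.43, the others 12.01 to 12.23), Srxn1 in CI ethanol replicate 7 (9.05, the others 9.24 to 9.43), Rnd2 in CI water replicate 10 (9.51, the others 9.03 to 9.24) and Dcn in CI water replicate 1 (9.18, the others 8.41 to 8.78), all log2 levels.

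Among list levels, each relative to the water mean of its study, the olfactory bulb level of DID ethanol replicate 10 was 1.739 while the other 9 DID ethanol arrays ran from -0.792 to 0.095. The chromatin modifier level of the same array was 0.053 (the others -0.039 to 0.005). The antioxidant and ethanol metabolism level stood apart in CI ethanol replicate 1 at 0.202 (the others 0.005 to 0.096) and in Chronic water replicate 6 at 0.158 (the others -0.058 to 0.029). The interferon and MHC class I level of CI ethanol replicate 3 was 0.229 (the others -0.11 to 0.055), and the ribosomal protein level of CI water replicate 4 was 0.136 (the others -0.067 to 0.027). The heat shock and folding level of CI water replicate 1 was -0.086 (the others -0.015 to 0.04), and the clock level of DID water replicate 8 was -0.072 (the others -0.014 to 0.036).

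The ethanol difference depended on the study for Raly (interaction adjusted p = 0.00455 by limma) and Emd (0.0156), and on the tissue for 21 of 7314 probes.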

How the results depend on the processing

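The count of 0 calls for the pooled difference held in all 15 alternatives and all 57 fits that left out 1 array, with unadjusted counts of 228 to 345 higher and 135 to 187 lower on leaving out 1 array and 2 to 3 interaction calls. Over probes with a value on every array 191 were higher and 104 lower, with 0 interaction calls because Raly and Emd each have 1 blank. Above the median signal 113 were higher and 53 lower, where fewer probes were tested. With 2 principal components as terms 311 were lower, and with an inverse-variance mean of the studies 264, and the cause was not tested. Interactions numbered 1 with the CI controls included, with a replicate block, with array weights, without Chronic ethanol replicates 2 and 6, and with 1 variance weight per study, since Emd was lost. The labels tie no replicate number to a shared animal, litter or day. Same-numbered ethanol and water arrays correlated over 0.1 in 16 of 27 pairs, 6 of 9 in Chronic, 8 of 8 in CI (0.121 to 0.459) and 2 of 10 in DID. The replicate block gave 328 higher, 163 lower and 0 calls, and an interaction adjusted p of 0.243 for Emd. Signs turned in 15 cases. With the striatal level as a term, Rgs9 stood at -0.0435, Tac1 at -0.0263, Rarb at -0.0192, Drd2 at -0.0247 and Rxrg at -0.0153. All of these but Rxrg are part of that term, so negative values among them are built into the fit. Without the Chronic study Raly stood at 0.0489, Hebp1 at 0.067 and Emd at 0.0873, and without DID Rnf141 stood at -0.023 and Calb2 at 0.0229. Emd, near 0 in the pooled fit, was also 0.0018 with the replicate block, 0.0164 with array weights, 0.0023 with principal components, 0.0061 without Chronic ethanol replicates 2 and 6, and 0.0284 with a variance weight per study. The 21 tissue differences stayed 21 without the tissue weight. The striatal term, the variance weight per study and the omission of the 2 Chronic arrays were chosen after the data were seen. The number of arrays and the spread between mice set the precision.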
